A study of Mus musculus with 43 samples.

Results

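Dbp, Tef, Hlf, Arntl, Npas2, Per1, Per2, Per3, Nr1d1 and Nr1d2 are 10 genes of the circadian clock and of its direct output. They were taken by gene name from the deposited expression table, where they are 10 of 42349 entries, and all 10 were found as entries of their own. RNA was sequenced from inguinal white adipose tissue (WAT), liver, brain and skeletal muscle of female mice aged 15 months. The 4 groups in each tissue were wild type mice (Irs1+/+) fed ad libitum (WTAL) or under dietary restriction (WTDR), and mice labelled Irs1-/- under the same diets (KOAL and KODR). Irs1 encodes an adaptor of the insulin receptor. The study describes the Irs1-/- mice as lacking it in the whole body, not in a chosen tissue. Restriction was 30% below ad libitum intake for 12 months, reached in steps from 10 weeks of age. All mice had lights on from 0700 to 1900 h. Restricted mice received their food once a day between 1630 and 1730 h, whereas ad libitum mice could eat at any time. The amount of food and the hour of feeding therefore cannot be told apart in any comparison of diets. The hour at which tissues were taken is not given in the sources used here. A difference in that hour between groups, if there was one, cannot be told apart from diet or genotype.

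In the clock of mammalian cells, ARNTL (also called BMAL1) pairs with CLOCK or NPAS2 and activates genes that carry E-box elements, among them the Per genes, Nr1d1, Nr1d2 and Dbp. PER proteins feed back on the pair that activates them, and the REV-ERB receptors encoded by Nr1d1 and Nr1d2 repress Arntl and Npas2, so that Arntl and Dbp peak at opposite phases of the day. DBP, TEF and HLF are PAR bZIP factors that bind D-box elements and carry the rhythm to genes of metabolism and detoxification, and in liver and other peripheral tissues the hour of feeding is a known cue that sets this rhythm.

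Each group has 1 value per gene, an FPKM (fragments scaled to transcript length and to library size) that the authors' software estimated from the libraries of the group, with a 95% interval. The labels list 2 libraries for WTAL in each tissue and for WTDR in WAT, and 3 for each other group, while the extraction notes give 3 WTDR mice. Values of single mice were not analysed here and the depth of each library is unknown, so errors come from the authors' intervals. Of the 160 values of the 10 genes, 72 had an interval that reached 0, and the SD was between 13.7% and 1071% of the value with a median of 43.7%. Per1 and Nr1d2 had the narrowest intervals (median SD 21.1% and 26.2% of the FPKM), and Npas2 and Hlf the widest (113% and 111%). A difference is the log2 ratio of a pair of groups, tested with a two-sided Wald test adjusted by the Benjamini-Hochberg method over all entries tested in that tissue and comparison, and it is called at an FDR of 10%. An entry was tested where both groups were above 0 and at least 1 of them reached 1 FPKM. Between 12989 and 15181 entries per group reached 1 FPKM. All 8 defining genes of liver, skeletal muscle, brain and adipocytes were highest in the tissue named. Irs1 did not follow the genotype labels, since its FPKM was higher in the group labelled KO in 7 of 8 comparisons (2.58 to 6.31 in groups labelled KO and 1.62 to 6.56 in WT). Among these comparisons only brain under restriction was called, with 4.14 in KODR and 1.62 in WTDR (log2 difference 1.35, SE 0.40). Directions between genotypes are therefore those of the labels. Dbp shares exon sequence with Sphk2 on the opposite strand, Nr1d1 with Thra, Tef with Gm17597 and Arntl with Gm45355. The strand setting of the authors' counting is not given, so reads of these partners cannot be told apart here.

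Sequences upstream of the genes that the results turn on are shown for the elements through which the clock is known to act. They are stretches of RefSeq promoters (GRCm38.p6) that end at a transcript start or before the first annotated exon, written 5′ to 3′ on the strand of the gene. The 250 bases before each start were searched on both strands for the E-box CACGTG, the D-box TTATGNAA, the nuclear receptor element AGGTCA and the cyclic AMP element TGACGTCA, none of which contains another. Of 32851 such windows of 27025 genes, 6.02% held the E-box, 3.07% the D-box, 14.0% AGGTCA and 1.55% TGACGTCA. Windows were found for 9 of the 10 genes (12 windows), and Per2 is named only. Per3 is shown with its D-boxes in capitals (chr4:151044666-151044915, minus strand), at positions -205 and -158 from the start. Tef (chr15:81811164-81811413, plus strand) is shown with an E-box in capitals at -138 and the window of the other start of Tef held an E-box at -127, inside annotated exons of Tef and Gm17597. Arntl (chr7:113207215-113207464, plus strand) held none of the 4 strings. Ciart, a repressor of the ARNTL pair, is shown because it was called in liver (chr3:95882252-95882478, minus strand), with E-boxes in capitals at -116, -58 and -44. Nfil3, a repressor that competes at D-boxes, was also called there, and its window held AGGTCA on the opposite strand at -12, inside the annotated first exon, so it is not shown. Before its upstream start Per1 held an E-box at -166, a D-box at -24 and AGGTCA at -137. The window of the other start of Per1 held none of the 4 strings. Hlf held TGACGTCA at -9 and Nr1d2 held AGGTCA at -77. Dbp, Npas2 and Nr1d1 held none of the 4 strings in these windows. A match describes the letters only. Bases after the start of each window's transcript were not searched, so no match in a window does not show that a promoter lacks the element.
Per3: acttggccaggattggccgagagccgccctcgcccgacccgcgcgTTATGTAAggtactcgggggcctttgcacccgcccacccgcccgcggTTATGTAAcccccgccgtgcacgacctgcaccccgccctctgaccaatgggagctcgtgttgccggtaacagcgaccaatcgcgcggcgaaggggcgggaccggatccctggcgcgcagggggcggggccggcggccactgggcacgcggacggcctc
Tef: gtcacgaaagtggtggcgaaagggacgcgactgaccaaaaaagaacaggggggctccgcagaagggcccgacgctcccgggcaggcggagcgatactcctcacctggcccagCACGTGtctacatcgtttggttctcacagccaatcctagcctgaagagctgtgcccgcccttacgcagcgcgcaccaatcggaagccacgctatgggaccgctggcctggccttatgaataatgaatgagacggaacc
Arntl: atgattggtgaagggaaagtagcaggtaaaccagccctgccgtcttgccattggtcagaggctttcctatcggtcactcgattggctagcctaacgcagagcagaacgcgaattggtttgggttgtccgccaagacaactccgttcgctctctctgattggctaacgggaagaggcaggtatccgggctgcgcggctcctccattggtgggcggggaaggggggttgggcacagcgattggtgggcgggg
Ciart: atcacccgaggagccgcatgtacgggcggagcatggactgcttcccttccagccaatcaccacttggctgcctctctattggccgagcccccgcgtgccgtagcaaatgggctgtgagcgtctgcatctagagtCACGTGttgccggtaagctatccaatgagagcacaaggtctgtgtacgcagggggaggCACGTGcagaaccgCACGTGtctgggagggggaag

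**Figure D1:**
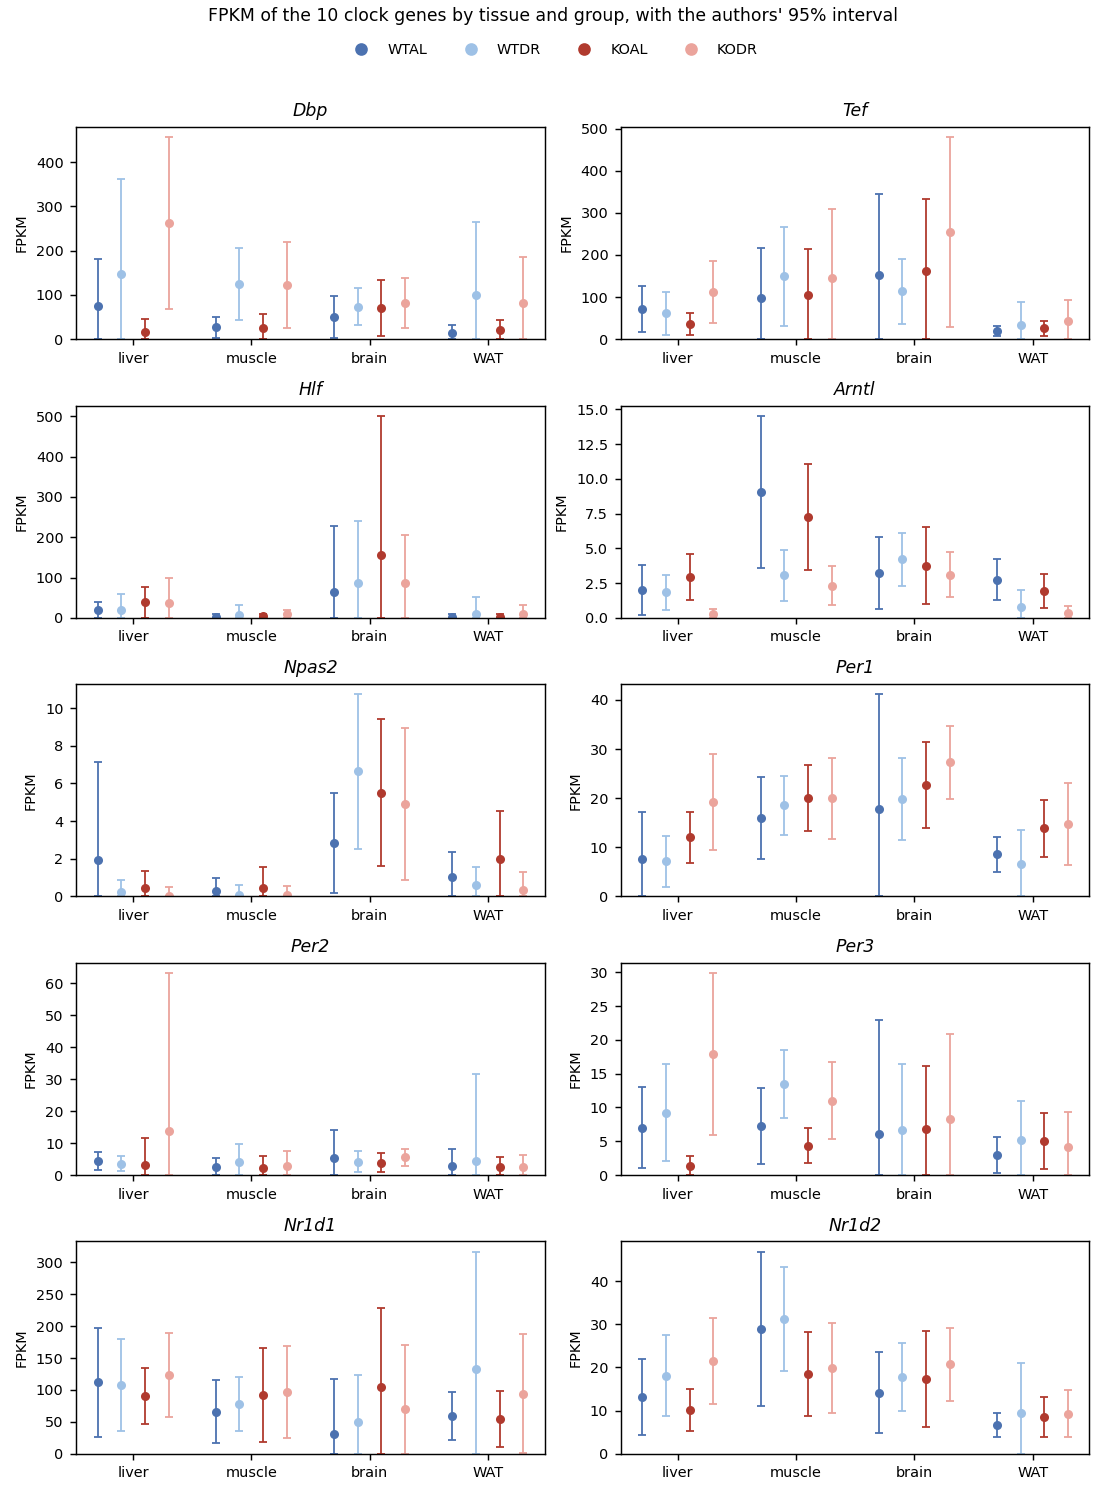
FPKM of the 10 genes (vertical axes, linear, in FPKM) in liver, skeletal muscle, brain and WAT (horizontal axes). Points are the authors' group values and bars their 95% intervals, in colours for WTAL, WTDR, KOAL and KODR. Dbp was highest in liver of KODR (263) and Arntl in skeletal muscle of WTAL (9.07).

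Under ad libitum feeding in wild type mice, the genes differed in which tissue they were highest. Arntl was highest in skeletal muscle (9.07 FPKM), followed by brain (3.20), WAT (2.75) and liver (2.00). Of the 60 pairs of a gene and 2 tissues in WTAL, 6 passed the test (10 genes and 6 pairs of tissues), beside 23.2% of all entries tested over the same pairs. With a t distribution 0 of the 6 were called. Arntl was lower in liver than in skeletal muscle by a log2 difference of -2.18 (SE 0.77) and higher in skeletal muscle than in WAT by 1.72 (SE 0.59). Tef was highest in brain (153), with 98.3 in skeletal muscle and 71.9 in liver, and it was lower in WAT (19.5) than in each of the other tissues. The log2 difference of Tef over WAT was 2.97 (SE 1.00) for brain, 2.33 (SE 0.97) for skeletal muscle and 1.88 (SE 0.69) for liver. Nr1d2 was 28.9 in skeletal muscle, 14.2 in brain, 13.2 in liver and 6.69 in WAT, and the difference of skeletal muscle over WAT passed (2.11, SE 0.54). In the other genes no pair of tissues passed, neighbours in the order included. Their order was brain, liver, WAT and skeletal muscle for Hlf (65.2 to 1.92), Npas2 (2.83 to 0.274) and Per2 (5.25 to 2.39). For Dbp it was liver, brain, skeletal muscle and WAT (74.7 to 14.1), and for Nr1d1 liver, skeletal muscle, WAT and brain (112 to 30.6). Per1 ran from 17.8 in brain through skeletal muscle and WAT to 7.68 in liver, and Per3 from 7.30 in skeletal muscle through liver and brain to 2.93 in WAT. Brain had the highest Npas2, Hlf and Per1 of the 4 tissues in every group, whereas the tissue that led for Dbp and Arntl was not the same in every group.

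The comparison of restricted with ad libitum mice asks how long-term restriction, with its single daily meal, altered the clock genes. Arntl had a lower group value under restriction in liver, skeletal muscle and WAT of both genotypes, and Dbp a higher one. In wild type liver the Arntl difference was small (log2 difference -0.13, SE 0.81). The Arntl difference in brain was 0.39 (SE 0.67) in wild type mice and -0.27 (SE 0.65) in mice labelled KO. For Dbp in brain these were 0.56 (SE 0.81) and 0.21 (SE 0.81). In mice labelled KO, Per3 rose in liver, and this was the only one of the 10 genes to pass the test in any diet or genotype comparison. In wild type mice 39 of 40 pairs of a gene and a tissue were tested and 0 were called by the Wald test, beside 0.603% of all entries tested. At an unadjusted p under 0.05 there were 2, both in skeletal muscle, beside 3.42% of all entries. In mice labelled KO 38 of 40 pairs were tested and 1 was called, beside 0.546% of all entries, and 9 had an unadjusted p under 0.05, beside 2.88%. Npas2 was not tested in skeletal muscle of either genotype or in liver of mice labelled KO, where neither group reached 1 FPKM. With a smaller SE, which treats the interval as that of a single library and so shrinks each SD with the root of the library number, 2 pairs were called in wild type mice and 10 in mice labelled KO, beside 3.39% and 4.86% of all entries.

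**Figure D2:**
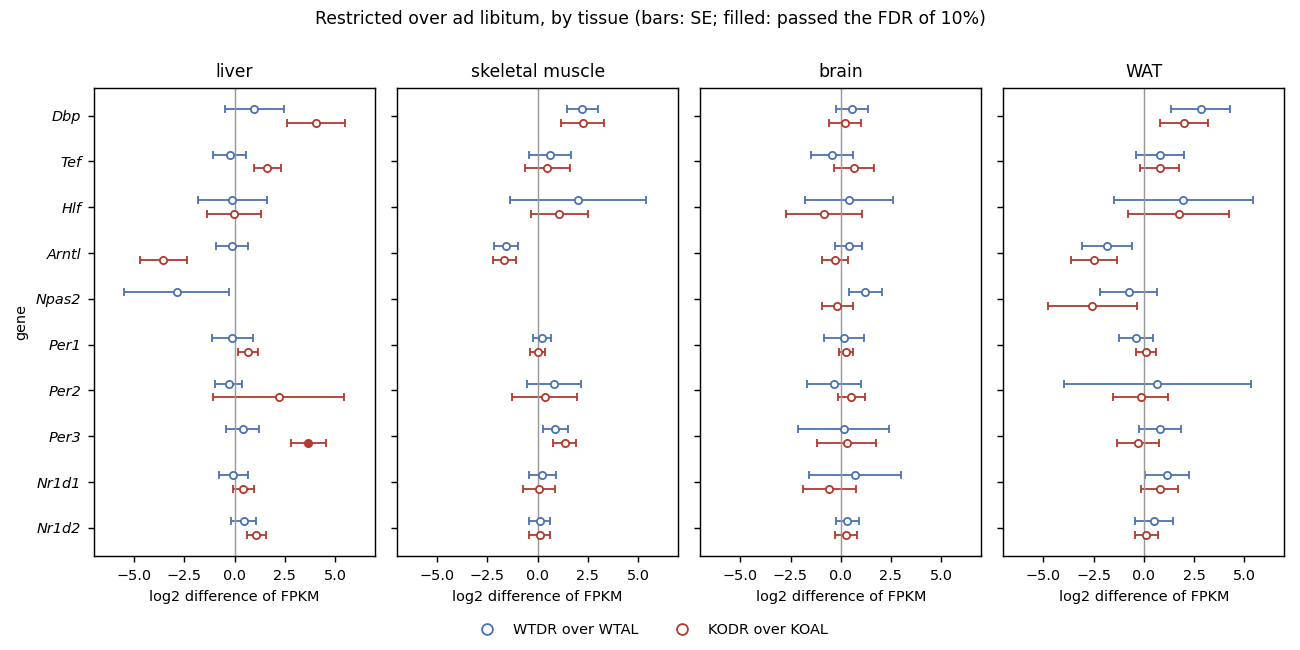
Log2 difference of FPKM between restricted and ad libitum mice (horizontal axes) for the 10 genes (vertical axis) in each tissue, in wild type mice (blue) and mice labelled KO (red). Bars are the SE and a filled point passed the FDR of 10%, which was Per3 in liver of mice labelled KO (3.68). Points of Npas2 that were not tested are left out.

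Arntl, the activator, was lowest where restriction and the KO label met in liver. Its FPKM in liver was 2.00 in WTAL, 1.82 in WTDR, 2.94 in KOAL and 0.251 in KODR, with authors' intervals of 0.224 to 3.78, 0.583 to 3.06, 1.27 to 4.60 and 0 to 0.628. The interval of KODR lay below that of KOAL and overlapped those of WTAL and WTDR. The log2 difference of KODR over KOAL was -3.55 (SE 1.16, 95% interval -5.83 to -1.27), which did not pass the adjusted test, and that of WTDR over WTAL was -0.13 (SE 0.81). The difference in mice labelled KO passed where a pseudocount of 0.1 or 1 FPKM was added (-3.11 and -1.65) and with the smaller SE. In bulk tissue fewer cells that express a gene and less RNA per cell cannot be told apart.

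In skeletal muscle the Arntl FPKM was 9.07 in WTAL, 3.05 in WTDR, 7.28 in KOAL and 2.30 in KODR, with intervals of 3.60 to 14.5, 1.19 to 4.91, 3.46 to 11.1 and 0.888 to 3.71. Both restricted groups were below both ad libitum groups, with overlapping intervals. Neither difference passed the adjusted test. The log2 difference was -1.57 (SE 0.62) in wild type mice and -1.66 (SE 0.58) in mice labelled KO. In WAT the FPKM was 2.75, 0.770, 1.92 and 0.348 in WTAL, WTDR, KOAL and KODR, with intervals of 1.25 to 4.25, 0 to 2.01, 0.719 to 3.13 and 0 to 0.858. The order of the groups in WAT was that of skeletal muscle, and the log2 difference was -1.84 (SE 1.23) in wild type mice and -2.47 (SE 1.15) in mice labelled KO. Brain values were 3.20, 4.20, 3.74 and 3.10 in the same order of groups, within 1.35-fold of each other. The Arntl difference between diets in wild type skeletal muscle less that in brain was -1.96 (SE 0.91). Over all pairs of tissues, which share groups, this was the single such difference of 57 tested with an unadjusted p under 0.05, beside 2.12% of all entries, and 0 were called, beside 0.177%.

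Npas2, the partner of ARNTL in forebrain and other tissues, was close to the lower limit outside brain. Its liver FPKM was 1.94 in WTAL, 0.262 in WTDR, 0.427 in KOAL and 0.0220 in KODR. In skeletal muscle it was 0.274, 0.103, 0.464 and 0.0782, and in WAT 1.06, 0.625, 1.99 and 0.337. The restricted group had the lower value in all 6 comparisons outside brain, and the interval of every one of these 12 groups reached 0. In brain Npas2 was 2.83 in WTAL, 6.64 in WTDR, 5.51 in KOAL and 4.93 in KODR, and the log2 difference of WTDR over WTAL was 1.23 (SE 0.81). Markers of brain regions also differed between these groups. The summed FPKM of the 5 striatum genes was 145, 261, 313 and 210 in WTAL, WTDR, KOAL and KODR, and that of the 6 immediate early genes, which follow neuronal activity, was 79.3, 166, 253 and 156. WTAL was lowest in both sums, as it was in brain for Dbp, Hlf, Npas2, Per1, Per3, Nr1d1 and Nr1d2. Tef, Arntl and Per2 were lowest in other groups. The 6 hypothalamus genes summed to 161, 137, 46.6 and 206 and the 5 cerebellum genes to 34.1, 36.5, 41.0 and 126, with 1 cerebellum gene listed at 0 in WTAL. The part of these markers in the brain values of the 10 genes was not tested.

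Dbp, the D-box activator, ranged 16.7-fold over the liver groups. Its liver FPKM was 74.7 in WTAL, 147 in WTDR, 15.7 in KOAL and 263 in KODR, with intervals of 0 to 181, 0 to 361, 0 to 45.1 and 68.6 to 457. KODR was highest and KOAL lowest, and the intervals of these groups did not overlap. The log2 difference of KODR over KOAL was 4.07 (SE 1.45, 95% interval 1.22 to 6.91), which did not pass the adjusted test but passed with the smaller SE. In wild type liver the log2 difference was 0.98 (SE 1.46).

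In skeletal muscle the Dbp FPKM was 26.7 in WTAL, 125 in WTDR, 25.8 in KOAL and 122 in KODR, with intervals of 3.60 to 49.7, 44.0 to 206, 0 to 57.5 and 24.2 to 219. Both restricted groups were above both ad libitum groups, and the 2 genotypes were close to each other under each diet. The log2 difference was 2.23 (SE 0.78, 4.69-fold) in wild type mice and 2.24 (SE 1.06, 4.71-fold) in mice labelled KO, and neither passed. In WAT the FPKM was 14.1, 101, 20.5 and 81.6, each with an interval that reached 0, and the log2 difference was 2.83 (SE 1.48) in wild type mice and 2.00 (SE 1.21) in mice labelled KO. Brain values were 49.8, 73.7, 70.5 and 81.6, in which the restricted group was higher by a log2 difference of 0.56 (SE 0.81) in wild type mice and 0.21 (SE 0.81) in mice labelled KO.

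The summed FPKM of the 8 liver genes was 2610 in skeletal muscle of WTDR and between 23.3 and 111 in the other skeletal muscle groups. The WTDR sum was 1.94% of that in liver, a share that would carry a Dbp FPKM of 2.85 where 125 was measured. The summed FPKM of the 8 adipocyte genes was between 631 and 2807 in skeletal muscle, with the lowest value in WTDR and the highest in KODR. In KODR this was 13.3% of the sum in WAT, which would carry a Dbp FPKM of 10.9 where 122 was measured and an Arntl FPKM of 0.0463 where 2.30 was measured. In KOAL the adipocyte share was 12.6%, which would carry a Dbp FPKM of 2.58 where 25.8 was measured. For Per3 in KOAL it would carry 0.642 where 4.31 was measured. The part of liver or adipocyte RNA in the skeletal muscle values was not tested.

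The ratio of Dbp to Arntl FPKM puts the opposite differences into 1 value per group. In skeletal muscle it was 2.94 in WTAL, 41.0 in WTDR, 3.55 in KOAL and 52.9 in KODR, and in WAT 5.15, 131, 10.6 and 235. In liver it was 37.3, 80.7, 5.34 and 1048, with the lowest value in KOAL and the highest in KODR. In brain the ratio stayed between 15.6 and 26.3. After the mean of the 4 groups of a tissue was subtracted, the Pearson r of Dbp with Arntl over the 16 groups was -0.85, a description over groups that share tissues, libraries and normalization. Over the same groups r was 0.84 for Dbp with Per3, 0.82 for Dbp with Tef, 0.77 for Arntl with Npas2 and 0.09 for Dbp with Per1.

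**Figure D3:**
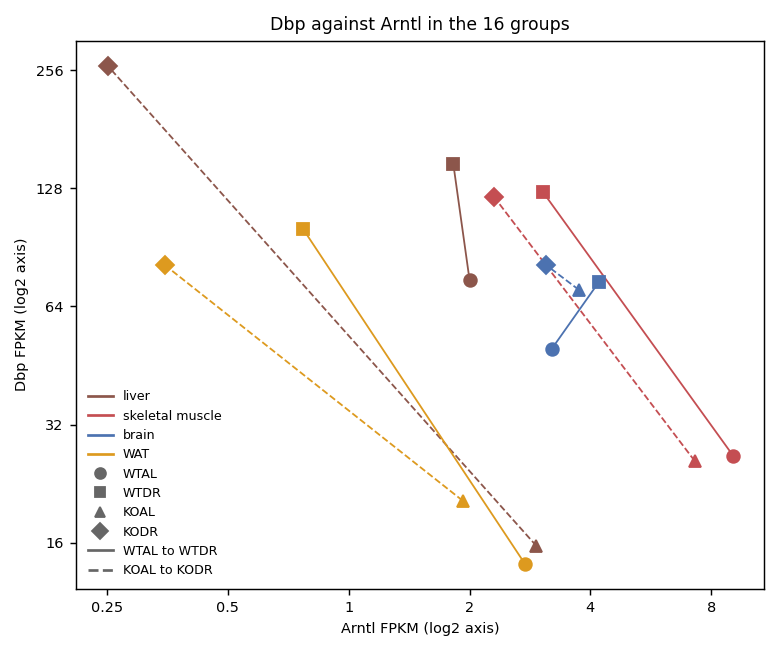
Dbp FPKM (vertical, log2 axis) against Arntl FPKM (horizontal, log2 axis) in the 16 groups. Colours are tissues, markers are groups, and lines run from the ad libitum to the restricted group of a genotype. Lines of skeletal muscle, WAT and KO-labelled liver run up and to the left, with KODR liver at 263 and 0.251, whereas brain points lie between 49.8 and 81.6 for Dbp.

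Tef and Hlf, the other PAR bZIP factors, had no called difference between diets. Tef in liver was 71.9 in WTAL, 61.3 in WTDR, 36.1 in KOAL and 112 in KODR, and the log2 difference of KODR over KOAL was 1.64 (SE 0.69). The Tef group value was higher under restriction in 5 of 6 comparisons outside brain, with log2 differences from -0.23 to 1.64. In skeletal muscle Tef was 98.3, 149, 104 and 145, and in WAT 19.5, 34.4, 25.5 and 43.9, with overlapping intervals throughout. Hlf was 1.92, 7.67, 3.91 and 8.31 in skeletal muscle and 2.72, 10.6, 2.87 and 9.54 in WAT, higher in both restricted groups of each tissue. Every one of these Hlf intervals reached 0, and the SE of the 4 log2 differences (2.00, 1.09, 1.96 and 1.73) lay between 1.40 and 3.46. In liver Hlf was close between diets, at 19.8 and 18.4 in wild type mice and 38.8 and 37.8 in mice labelled KO.

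Among the Per genes, which encode the negative limb, Per3 was the member called. Its liver FPKM was 7.02 in WTAL, 9.24 in WTDR, 1.40 in KOAL and 17.9 in KODR, with intervals of 1.03 to 13.0, 2.12 to 16.4, 0 to 2.82 and 5.93 to 29.9. The KOAL interval lay wholly below that of KODR. Per3 rose in liver of KODR over KOAL by a log2 difference of 3.68 (SE 0.88, 12.8-fold, 95% interval 1.96 to 5.40). The call was lost with a t distribution in place of the normal one and kept under every other alternative run. In wild type liver the difference was 0.40 (SE 0.83). In skeletal muscle Per3 was 7.30, 13.4, 4.31 and 11.005 in WTAL, WTDR, KOAL and KODR, both restricted groups above both ad libitum groups, and the log2 difference was 0.88 (SE 0.62) in wild type mice and 1.35 (SE 0.57) in mice labelled KO. In WAT it was 2.93, 5.15, 5.09 and 4.18, and in brain 6.05, 6.72, 6.78 and 8.31, with no order by diet common to the genotypes in WAT.

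Per2 in liver was 4.31 in WTAL, 3.54 in WTDR, 3.04 in KOAL and 13.9 in KODR, but the KODR interval ran from 0 to 63.2, and the log2 difference over KOAL was 2.19 with an SE of 3.26. In the other tissues Per2 lay between 2.29 and 5.52. Per1, which responds directly to glucocorticoids and to signals through cyclic AMP, showed no common direction with diet outside brain, where the restricted group was higher in 3 comparisons and lower in 3. In skeletal muscle Per1 lay between 15.99 and 20.0 in all 4 groups. In brain it was 17.8 in WTAL, 19.8 in WTDR, 22.7 in KOAL and 27.3 in KODR.

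Of the REV-ERB genes, neither was called in any diet comparison. Nr1d1 in liver was 112 in WTAL, 108 in WTDR, 90.7 in KOAL and 123 in KODR, a range of 1.35-fold, while Arntl ranged 11.7-fold and Dbp 16.7-fold in the same groups. In WAT Nr1d1 was 59.4, 133, 54.7 and 94.4, and the log2 difference with restriction was 1.16 (SE 1.10) in wild type mice and 0.79 (SE 0.92) in mice labelled KO. In skeletal muscle Nr1d1 was 65.9, 77.8, 92.3 and 96.4, and in brain 30.6, 50.4, 105 and 70.5. Nr1d2 had the higher value under restriction in all 8 diet comparisons. Its liver FPKM was 13.2, 18.1, 10.2 and 21.5, with a log2 difference of 0.46 (SE 0.61) in wild type mice and 1.08 (SE 0.48) in mice labelled KO. In skeletal muscle, brain and WAT the Nr1d2 differences lay between 0.10 and 0.51, each smaller than its SE.

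Whether the genotype label altered these genes was compared under each diet. Under ad libitum feeding 39 of 40 pairs of a gene and a tissue were tested and 0 were called by the Wald test, beside 0.631% of all entries tested, with 1 at an unadjusted p under 0.05 (2.90% of all entries) and 1 called with the smaller SE (3.18% of all entries). That pair was Per3 in liver, lower in KOAL than in WTAL by a log2 difference of -2.33 (SE 0.96). Dbp in KOAL liver differed from WTAL by -2.25 (SE 1.69) and Tef by -0.99 (SE 0.75), whereas Arntl differed by 0.55 (SE 0.76). Under restriction 36 of 40 were tested and 0 were called, beside 0.990% of all entries, with 2 at an unadjusted p under 0.05 (4.20% of all entries) and 3 called with the smaller SE (8.42% of all entries). The pairs at an unadjusted p under 0.05 were Arntl in liver (-2.86, SE 1.19) and Per1 in liver (1.43, SE 0.64). Tef in brain was the other one called with the smaller SE (1.17, SE 0.81).

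**Figure D4:**
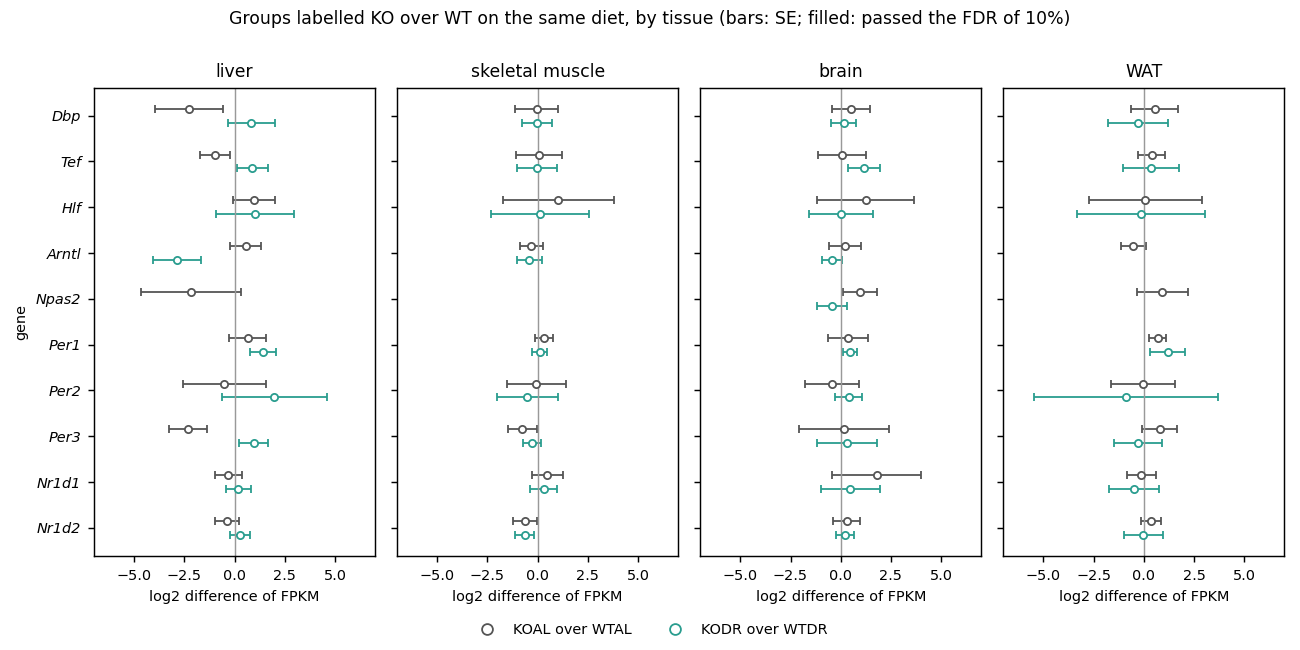
Log2 difference of FPKM between the groups labelled KO and WT (horizontal axes) for the 10 genes (vertical axis) in each tissue, under ad libitum feeding (KOAL over WTAL) and under restriction (KODR over WTDR). Bars are the SE, and 0 points passed the FDR of 10%. Per1 lies to the right of 0 in all 8 comparisons (0.10 to 1.43).

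Per1 was the gene with a common direction by label. Its FPKM was higher in the group labelled KO in 8 of 8 comparisons, with log2 differences from 0.10 to 1.43. In liver it was 7.68 in WTAL and 12.0 in KOAL, and 7.13 in WTDR and 19.2 in KODR. In WAT it was 8.56 and 13.9 under ad libitum feeding, with intervals of 5.07 to 12.0 and 8.09 to 19.6, and 6.52 and 14.8 under restriction. None of these differences passed the test. The summed FPKM of the 5 red blood cell genes was also higher in the group labelled KO in 7 of 8 comparisons, between 3475 and 21030 in those 7 and between 949.8 and 12269 in the WT groups set against them, and its part in the Per1 values was not tested.

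The interaction, the diet difference in mice labelled KO less that in wild type mice, was tested for 38 of 40 pairs and called for 0 by the Wald test, beside 0.251% of all entries. At an unadjusted p under 0.05 there were 2, beside 2.11% of all entries, both in liver. They were Per3 (3.28, SE 1.21) and Arntl (-3.42, SE 1.41), and with the smaller SE both were called, beside 2.51% of all entries. The interaction of Dbp in liver was 3.09 (SE 2.06, 95% interval -0.95 to 7.13). In skeletal muscle the interaction was 0.01 for Dbp (95% interval -2.57 to 2.58) and -0.09 for Arntl (-1.75 to 1.58), intervals that do not show equal diet differences. The call of Per3 in mice labelled KO and its absence in wild type mice is therefore not shown to be a difference between genotypes.

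Of 16 other core clock genes and 13 clock output genes, none of which is among the 10, 98 of 116 pairs of a gene and a tissue were tested in wild type mice and 0 were called with restriction by the Wald test, beside 0.603% of all entries, with 3 at an unadjusted p under 0.05 (3.42% of all entries) and 4 with the smaller SE (3.39%). In mice labelled KO 98 were tested and 3 were called, beside 0.546% of all entries, with 8 at an unadjusted p under 0.05 (2.88% of all entries). These lists were chosen with earlier results of the data known. Ciart rose in liver, where its FPKM was 2.00 in WTAL, 5.79 in WTDR, 1.08 in KOAL and 23.9 in KODR. The log2 difference of KODR over KOAL was 4.46 (SE 1.15). Nfil3 fell in the same comparison, with an FPKM of 31.7 in WTAL, 26.2 in WTDR, 56.9 in KOAL and 10.7 in KODR and a log2 difference of -2.41 (SE 0.49). In KODR liver Nfil3 and Arntl thus had their lowest liver values, and Dbp, Tef, Per3 and Ciart their highest.

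The other call was in WAT, where Elovl3, an elongase of very long chain fatty acids, was 0.123 in WTAL, 4.52 in WTDR, 0.692 in KOAL and 14.7 in KODR. Elovl3 rose in KODR over KOAL by 4.41 (SE 0.97), and the wild type difference was 5.20 (SE 1.64) without passing. With a t distribution 0 of these 3 were called, and the smaller SE called 13 (4.86% of all entries). Clock itself, the usual partner of ARNTL, was 5.23, 2.77, 3.43 and 2.70 in skeletal muscle, with no call. Between genotypes, 0 of 92 tested pairs were called under ad libitum feeding, beside 0.631% of all entries. At an unadjusted p under 0.05 there were 0 (2.90% of all entries) and with the smaller SE 0 (3.18%). Under restriction 1 of 99 was called, near the 0.990% of all entries, and 6 had an unadjusted p under 0.05 (4.20% of all entries). The call was Elovl3 in skeletal muscle (0.266 in WTDR and 2.09 in KODR), higher in the group labelled KODR by 2.97 (SE 0.51). With a t distribution or where at least 5 FPKM was required this call was lost. Adipocyte genes also differed between these groups, with a summed FPKM in skeletal muscle of 631 in WTDR and 2807 in KODR. In KODR this sum was 13.3% of that in WAT, where Elovl3 was 14.7. The part of adipocyte RNA in the Elovl3 values of skeletal muscle was not tested.

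**Figure D5:**
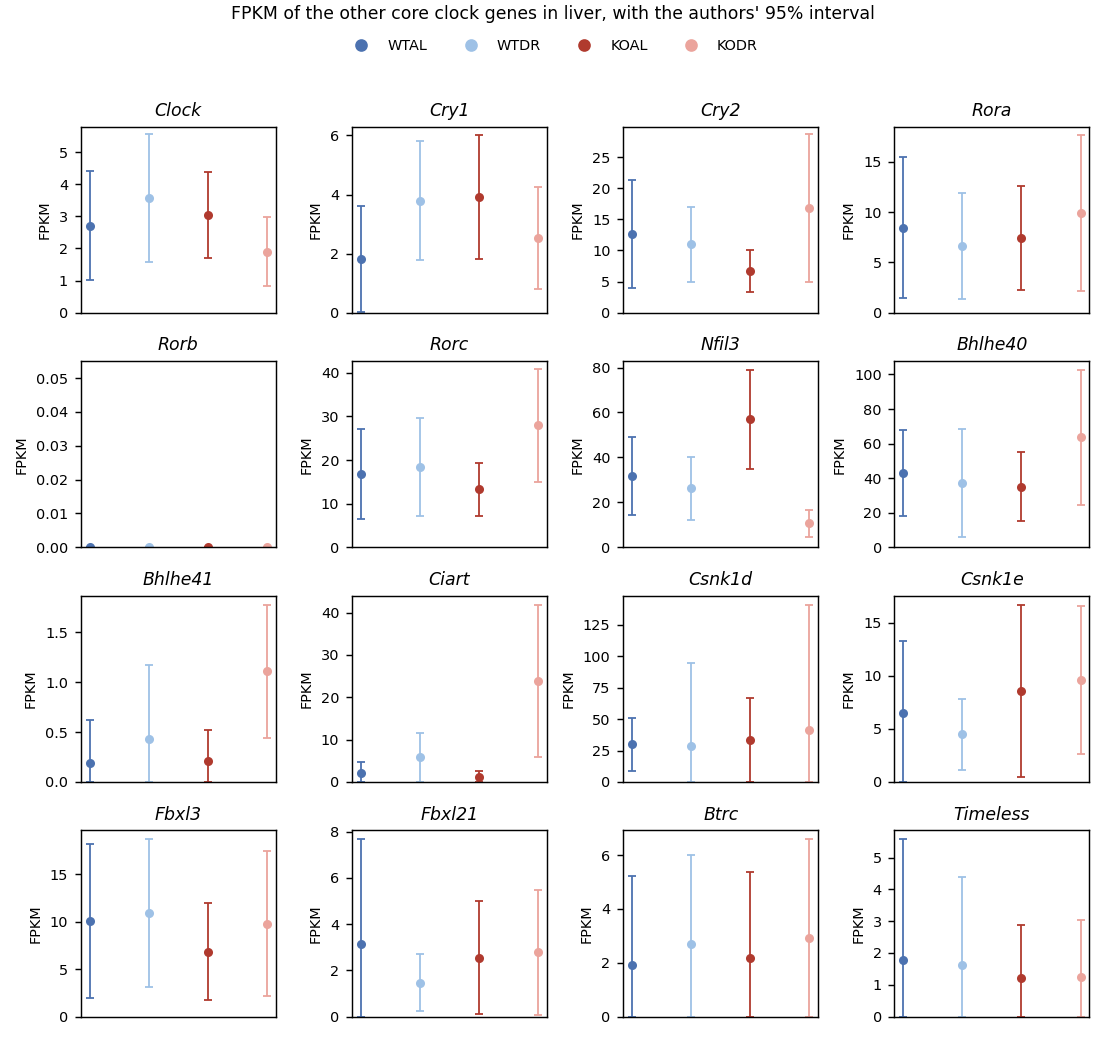
FPKM of the 16 other core clock genes in liver (vertical axes, linear, in FPKM) in WTAL, WTDR, KOAL and KODR. Points are group values and bars the authors' 95% intervals. Ciart is highest (23.9) and Nfil3 lowest (10.7) in KODR, and Rorb is at 0 in all 4 groups.

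Glucocorticoids, whose secretion follows the time of day and of feeding, act on Per1 among other genes. Beside the clock genes, 7 genes that respond to them were therefore measured. Their list was chosen with earlier results of these data known. In wild type mice 4 of 28 pairs of a gene and a tissue fell with restriction and 0 rose. Of all entries 0.603% were called in either direction. There were 10 pairs at an unadjusted p under 0.05 (3.42% of all entries) and 8 called with the smaller SE (3.39%). With a t distribution 0 of the 4 were called. Zbtb16 fell in liver from 5.51 to 0.591 FPKM (log2 difference -3.22, SE 0.67), Fkbp5 in skeletal muscle from 31.2 to 8.06 (-1.95, SE 0.60), Ddit4 in skeletal muscle from 23.9 to 5.01 (-2.26, SE 0.70) and Mt2 in WAT from 431 to 25.3 (-4.09, SE 0.86). The calls of Fkbp5 and Ddit4 were also lost at an FDR of 5%, with no filter on low FPKM, with centring, with 1 adjustment over all tissues and where intervals had to lie apart. In mice labelled KO 0 of 28 passed with restriction by the Wald test, beside 0.546% of all entries. There 3 had an unadjusted p under 0.05 (2.88% of all entries) and 6 were called with the smaller SE (4.86%). Under ad libitum feeding 0 of 28 passed between genotypes, beside 0.631% of all entries. Of these pairs 1 had an unadjusted p under 0.05 (2.90% of all entries) and 1 was called with the smaller SE (3.18%). Under restriction 4 of 28 were higher in the group labelled KODR than in WTDR and 0 were lower, beside 0.990% of all entries called. An unadjusted p under 0.05 was found for 11 (4.20% of all entries), and the smaller SE called 10 (8.42%). The 4 called by the Wald test were Zbtb16 in liver (2.83, SE 0.63), Fkbp5 and Ddit4 in skeletal muscle (1.15, SE 0.33, and 2.42, SE 0.62) and Fkbp5 in WAT (2.76, SE 0.46). With a t distribution 0 of the 4 were called, and Zbtb16 was not tested where at least 5 FPKM was required. The WTDR groups enter both of these comparisons.

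The entries whose pattern over the 16 groups was most like that of Dbp, after the mean of each tissue was subtracted from log2(FPKM + 0.1), were Mid1ip1 (Pearson r 0.89), Msmo1 (0.87), Sc5d (0.86), Nsdhl (0.85) and Per3 (0.84) among 8885 candidates. Msmo1, Sc5d and Nsdhl encode enzymes of cholesterol synthesis, and Mid1ip1 encodes an activator of acetyl-CoA carboxylase. For Arntl they were Pdk4 (0.90), a kinase that restrains pyruvate oxidation, Irak2 (0.86), Ccng2 (0.85), Tcf12 (0.85) and Clock (0.84) among 8886. These are the highest values of many candidates over 16 groups, and are given as a description.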

How the data were processed

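The labels list 43 libraries of polyadenylated RNA in 16 groups (4 tissues, 2 genotypes, 2 diets), sequenced on an Ion Proton instrument. Per the labels and the study's methods, the authors trimmed reads with cutadapt 1.5, aligned them to GRCm38 and ran Cuffdiff 2.2.1 with correction for multiply mapped reads. Library sizes were normalised by the authors through geometric means over the samples. The deposited table gives an FPKM, a 95% interval and a status for each entry and group, and 873 of its 42349 entries join several genes. Each value is the authors' estimate for a group, so no spread between mice could be computed and no left-out library tried.

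Each SD was taken as the distance from the FPKM to its upper bound, divided by 2. The log2 ratio of 2 groups had a delta-method SE and a two-sided Wald test with a normal reference, adjusted by the Benjamini-Hochberg method. Values whose status was other than OK were not tested. The code was tested on simulated data. Python 3.11.15, numpy 2.4.6, pandas 2.3.3, scipy 1.17.1 and matplotlib 3.10.9 were used. The 10 genes, the lists and the tests were chosen with earlier results of these data known. Named beyond the 10 were listed genes that passed a test, Irs1 and, for Dbp and Arntl, the 5 entries of highest r with an expressed value in all groups. Clock and some counts of 5 or fewer were named after their values were seen. Alternatives were a t distribution, intervals that do not overlap, an FDR of 5%, pseudocounts, other FPKM limits, a minimum fold of 2, centring, leaving out joined entries, a smaller SE and 1 adjustment over all tissues.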

Additional observations from a re-analysis of the deposited data

Results flagged for a closer look

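Among the genes that respond to glucocorticoids, the restriction effect on Mt2, a metallothionein, differed between tissues in wild type mice. The log2 difference of WTDR over WTAL in brain less that in WAT was 4.89 (SE 1.01), and it passed the FDR of 10% in the Wald test adjusted over all entries but not with a t distribution. Mt2 was 105 FPKM in WTAL and 183 in WTDR in brain, and 431 and 25.3 in WAT. No such difference between tissues or genotypes was called for any of the 10 clock genes.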

How the results depend on the processing

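No paired analysis was possible because the deposited values are pooled over the libraries of a group and carry no replicate numbers, and for the same reason no replicate could be left out. Among the 10 genes the smaller SE called 2 in place of 0 for WTDR over WTAL, 10 in place of 1 for KODR over KOAL, 1 in place of 0 for KOAL over WTAL, 3 in place of 0 for KODR over WTDR, 2 in place of 0 for the interaction, 1 in place of 0 for the restriction effect between tissues and 18 in place of 6 between tissues in WTAL. Among the other clock genes it called 4 in place of 0 for WTDR over WTAL, 13 in place of 3 for KODR over KOAL and 12 in place of 1 for KODR over WTDR. For the glucocorticoid responsive genes, whose alternatives were chosen after seeing the data, it called 8 in place of 4, 6 in place of 0, 1 in place of 0 and 10 in place of 4 for WTDR over WTAL, KODR over KOAL, KOAL over WTAL and KODR over WTDR. A t distribution called 0 of them in each of these 4 comparisons, and an FDR of 5%, no filter, centring or 1 adjustment over all tissues left 2 of the 4 for WTDR over WTAL. Over all entries the smaller SE called 1956 in place of 348, 2850 in place of 320, 1859 in place of 369 and 4857 in place of 571 in these comparisons, in the order WTDR over WTAL, KODR over KOAL, KOAL over WTAL and KODR over WTDR.

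A t distribution left 2, 26, 5 and 22 calls over all entries in that order, and among the clock genes 0 calls for KODR over KOAL (the 10 genes and the others), KODR over WTDR (the others) and between tissues in WTAL. Intervals that do not overlap gave 3 of the 10 genes for KODR over KOAL and 1 between tissues in WTAL, and over all entries 607, 580, 553 and 767. This setting gives no value for the interaction or between effects. A pseudocount of 0.1 gave 2 of the 10 genes for KODR over KOAL and 1 other clock gene for WTDR over WTAL, and a pseudocount of 1 gave 2 of the 10 genes for KODR over KOAL. Requiring 5 FPKM gave 0 other clock genes for KODR over WTDR.

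Of 247 differences of the 10 genes between diets, genotypes or effects, 9 turned their sign under an alternative, and none of the 9 was called. With centring these were Dbp in skeletal muscle (0.0016) and Tef in brain (-0.0523) and Per2 in WAT (0.015) for KOAL over WTAL, Dbp (-0.0808) and Nr1d2 (-0.0113) in brain for KODR over WTDR, the interaction of Dbp in skeletal muscle (-0.0699) and the restriction effect on Per2 in liver less brain (-0.0428). With a pseudocount of 1 they were the restriction effects on Hlf (-0.0691) and Arntl (-0.23) in skeletal muscle less WAT. The cause was not tested. The 247 differences kept their side of the threshold with an FDR of 5%, a minimum fold of 2, no filter, joined entries left out and 1 adjustment over all tissues. The 60 pairs of tissues in WTAL are not among the 247, and their 6 calls became 5 with an FDR of 5%, 7 with a pseudocount of 1 and 8 with centring.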
